A study of Gallus gallus with 41 samples.

Results

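RAB GTPases are small proteins that mark the membranes of a cell and steer vesicles between them. The genes described here are those whose platform symbol is RAB followed by a number and at most 1 letter, which gave 94 probe sets for 49 genes among 13009 named genes on an Affymetrix chicken array. Where a gene had several probe sets, the set with the highest mean over all cells was taken. The genes were taken by symbol and not by a measured difference, though the RAB family was chosen with earlier results of these data known. RAB3A, RAB3C, RAB3D, RAB27B, RAB37 and RAB6B, which belong to families that include RABs of neurons, carry no single symbol among these probe sets and were not analysed here.

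A RAB switches between a form bound to GDP, held in the cytosol by a GDP dissociation inhibitor, and a form bound to GTP, anchored in a membrane by prenyl groups. Exchange factors load GTP, GTPase activating proteins end the signal, and effectors such as tethers, motor adaptors and lipid kinases act on the vesicle that carries the active RAB. Different RABs mark the endoplasmic reticulum and Golgi, early endosomes, recycling endosomes, late endosomes and secretory vesicles, and a growing neuron uses all of these routes to supply membrane to its axon and dendrites.

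The cells came from chick retinas dissociated with papain, with no culture, and each was picked with a glass pipette and put on 1 array. Embryonic day 3 (E3) gave 6 cells, E4 gave 3, E5 gave 5, E6 gave 10, E7 gave 1, E9 gave 6, E14 gave 8 and E15 gave 2, which makes 41. The labels name no strain, sex, embryo or treatment, so the cells of an age count as 1 sample and their standard deviations describe a spread that enters no test. Values are log2 MAS5 signals raised to a floor of 5.0 where they lay below it, and detection of a gene in a cell means a signal no lower than the 80th percentile of its array.

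The series as a whole sets limits on what the RAB values can show. The arrays of all 3 E4 cells, of E6 replicate 7 and of both E15 cells had medians of 7.47 ± 0.39 (SD, n = 6) against 4.67 ± 0.46 on the others (n = 35), and are called high-background arrays or arrays of high background. Transcripts were primed from the poly(A) tail and amplified over 35 PCR cycles, so a low signal does not show that a transcript was absent. The signal of ACTB, cytoskeletal actin, was higher at the 3′ than at the 5′ end of its transcript, by 6.65 ± 1.98 log2 units in the E3 cells (n = 6), 1.27 ± 0.53 in the E9 cells (n = 6) and 3.08 ± 0.80 in the E14 cells (n = 8). Genes of other cell types were detected in part: 7 of 9 pigment epithelium genes, 6 of 7 microglia genes, 8 of 9 lens genes and all 8 vascular and mesenchymal genes in at least 1 cell, among them COL1A1, a fibrillar collagen, in 40 cells. RPE65 and TYRP1 of the pigment epithelium, PTPRC of blood-derived cells and BFSP1 of the lens were detected in 0 cells. In single cells the list means ran from 5.08 to 8.31 for pigment epithelium, 5.0 to 8.59 for microglia and 5.56 to 8.60 for lens. The mean of 5 erythroid genes was 9.40 at E3, 7.79 at E14 and 10.12 at E15, against 5.54 at E5, 5.71 at E6 and 5.67 at E9.

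Cells were described as dividing or neuronal by which of 2 marker lists had the higher mean, 38 cell cycle genes or 27 neuronal genes, neither of which holds a RAB. The dividing list was higher in 12 cells, which were all 6 at E3, all 3 at E4, replicates 4 and 5 at E5 and the E7 cell. The neuronal list was higher in the other 29 cells. In E15 replicates 2 and 3 it led by only 1.50 and 1.47. Their neuronal means of 9.61 and 9.28 were no higher than the detection thresholds of their arrays, 9.61 and 9.81. At E15 the list means were 10.63 for bipolar and 9.34 for photoreceptor genes, the highest of any age, on arrays of high background. Of these, 5 of 6 and 7 of 9 genes were detected in at least 1 E15 cell. The classes are ranges of a score and not cell types, and 1 cell, E3 replicate 5, lay within 1 log2 unit of the cut. The mean of 13 retinal progenitor genes was 7.33 at E3, against 11.19 at E4, on arrays of high background, and 9.72 in the E7 cell. This mean was 8.25 at E5, 7.43 at E6, 7.08 at E9, 7.08 at E14 and 7.92 at E15. The ACTB difference between ends was 5.13 ± 2.46 in the dividing cells (SD, n = 12) and 2.49 ± 1.59 in the neuronal cells (n = 29), so class, age and the state of the RNA moved together and their parts in a difference between classes cannot be told apart.

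Some RABs were found in most cells and others were rarely seen. Of the 49 genes, 8 (16.3%) were each detected in at least 33 of the 41 cells, a number that 5.49% of all named genes reached. Another 19 RABs were detected in 15 to 27 cells, and 22 (44.9%) in 8 cells or fewer, close to the 47% of all named genes at that level. No RAB was detected in all 41 cells, as 0.584% of named genes were. The chart of all RABs by cell shows a band of high signal at the top and a field near the floor below it.

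**Figure D1:**
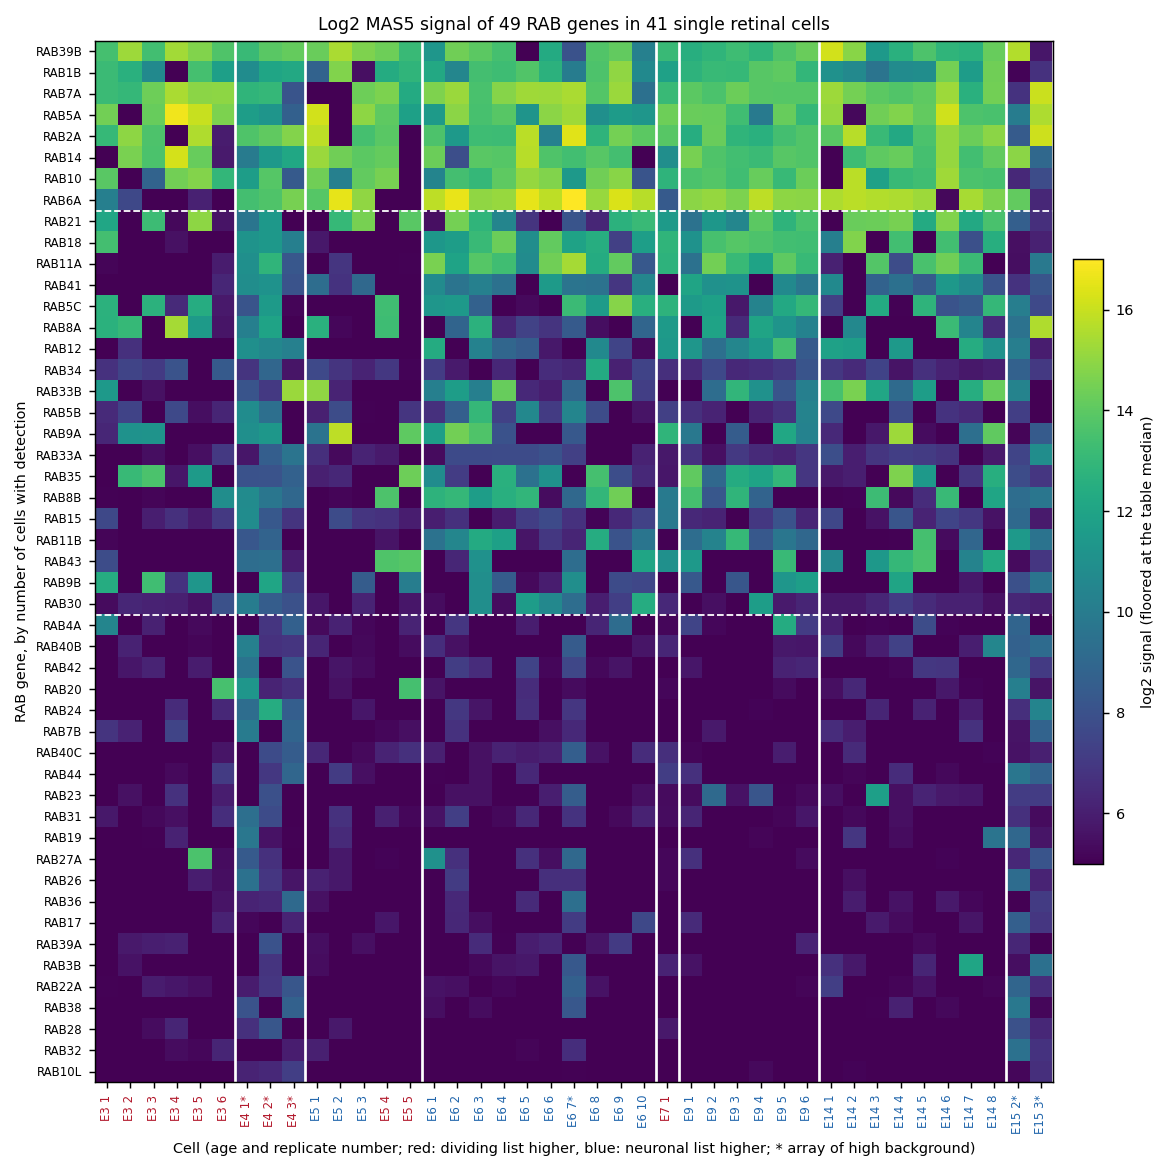
Log2 MAS5 signal, floored at 5.0, of the 49 RAB genes (rows, ordered by the number of cells with detection) in 41 single cells (columns, ordered by age and replicate number). Dashed lines bound the 8 genes detected in at least 33 cells and the 22 detected in at most 8, cell names in red have the higher dividing list and names in blue the higher neuronal list, and an asterisk marks an array of high background. The top band is bright in nearly all cells, the middle band is patchy and the bottom band lies near the floor.

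Most of the 8 shared RABs were assigned to the endoplasmic reticulum and Golgi, RAB39B among them, or to early and late endosomes. These compartments also hold most RABs: of 46 assigned, 13 were of the endoplasmic reticulum and Golgi, 10 of early endosomes and 7 of late endosomes and lysosomes. RAB10 was assigned to recycling and polarised delivery. RAB11A and RAB11B of the recycling endosome, detected in 26 and 18 cells, were not among the 8. RAB39B, a RAB strongly expressed in neurons whose human gene is mutated in X-linked intellectual disability, and RAB1B, which acts between the endoplasmic reticulum and the Golgi, were each detected in 38 cells (92.7%, exact 95% interval 80.1 to 98.5%, which covers counting error only). RAB5A of the early endosome and RAB7A of the late endosome were detected in 37 cells each. RAB2A of the early secretory pathway was detected in 36, RAB14, of the Golgi and early endosomes, and RAB10, which directs vesicles to the plasma membrane and to growing axons, in 35 each, and RAB6A, the Golgi RAB, in 34.

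All 8 were detected together in 23 of the 41 cells. They were found together in 6 of 6 cells at E9, 7 of 10 at E6, 5 of 8 at E14, 2 of 3 at E4 and in the E7 cell, but in 1 of 6 at E3, 1 of 5 at E5 and 0 of 2 at E15. The E15 cells, on arrays of high background, missed 4 and 5 of the 8. The 80th percentiles of their arrays were 9.61 and 9.81, against a mean of 6.47 on the 35 arrays of lower background. The missed genes lay from 5.12 to 8.46 in replicate 2 and from 5.74 to 9.07 in replicate 3. E4 replicates 1 and 2, also on arrays of high background, had all 8. The part of the threshold in these misses was not tested. E5 replicate 5 missed RAB2A, RAB14, RAB10 and RAB6A, and E3 replicate 6 missed RAB2A, RAB14 and RAB6A. RAB6A was missing from E3 replicates 3, 4 and 6, E5 replicates 4 and 5, E14 replicate 6 and E15 replicate 3.

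**Figure D2:**
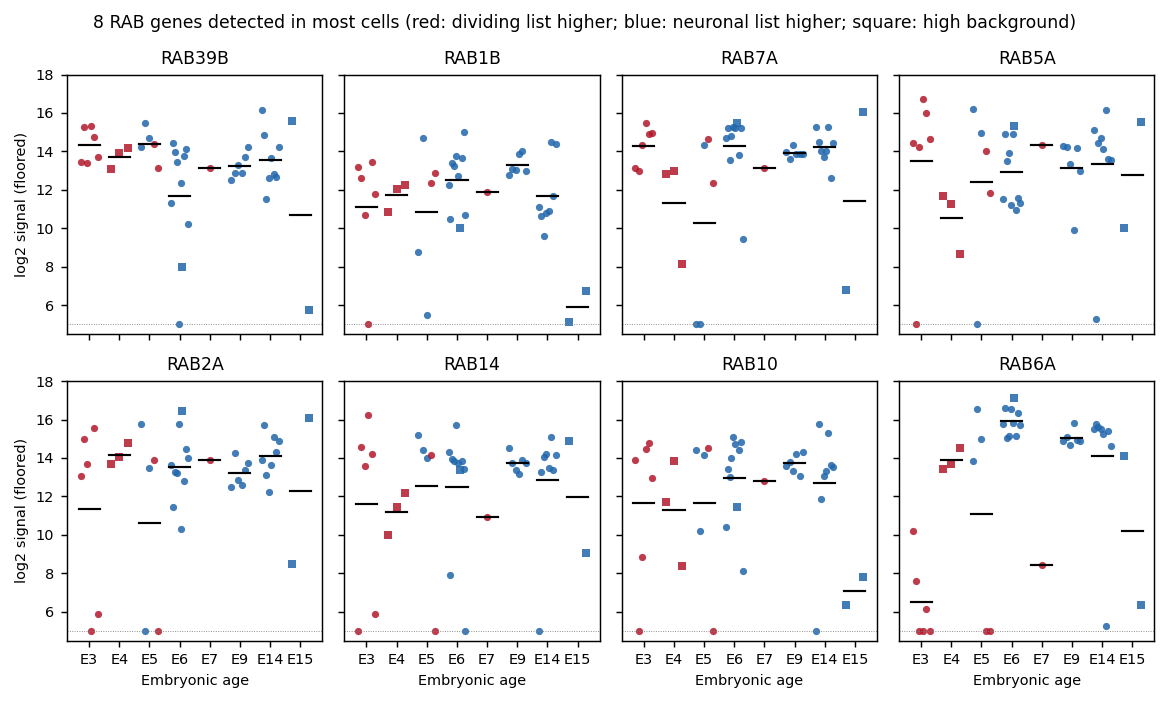
Log2 signal, floored at 5.0 (dotted line), of the 8 RAB genes detected in most cells, by embryonic age. Each point is 1 cell, squares are arrays of high background, red marks cells with the higher dividing list and blue those with the higher neuronal list, and bars are means of an age. RAB6A lies between 5.0 and 10.18 in the E3 cells and at 5.0 in the 2 dividing E5 cells, while the other 7 genes have high and low cells at several ages.

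RAB39B had a high signal in nearly all cells, dividing and neuronal. Its 6 E3 cells lay between 13.37 and 15.34 with a median of 14.23, and its 8 E14 cells between 11.50 and 16.16 with a median of 13.25. The E5 cells stood at 14.25, 15.47, 14.69, 14.37 and 13.11. At E6 the mean was 11.66 ± 3.11 (SD, n = 10), with replicate 5 at the floor and replicate 7, on an array of high background, at 8.0. The E15 cells stood at 15.60 and 5.74. The dividing and neuronal cells of E5 overlapped, and RAB39B had a correlation of -0.28 with the neuronal list mean over the 35 cells on arrays of lower background (Pearson r, a description over cells that share age and amplification). A further probe set of RAB39B was detected in 4 cells, so the breadth rests on the set used.

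RAB1B, RAB2A, RAB5A, RAB7A, RAB14 and RAB10 had high and low cells at several ages. At E9 the 6 cells lay close together in 5 of these genes: RAB7A had 13.91 ± 0.24, RAB14 13.73 ± 0.47, RAB10 13.72 ± 0.48, RAB1B 13.30 ± 0.53 and RAB2A 13.21 ± 0.69 (SD, n = 6). RAB5A spread more, 13.15 ± 1.68, with replicate 4 at 9.90. At E3 or E5 each of these genes had cells above 12 beside a cell under 6. RAB5A stood in the E5 cells from 5.0 to 16.20 with a median of 14.04, and RAB2A from 5.0 to 15.79 with a median of 13.46. At E15, RAB1B was 5.12 and 6.72 and RAB10 6.37 and 7.80, below detection in both cells.

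Probe sets of a gene did not always tell the same story. RAB7A, read from a set that can match several transcripts, had means of 14.30 at E3 and 14.27 at E6, while another RAB7A set, detected in 37 cells as well, had 9.61 and 14.84. For RAB2A a further set gave 8.30 at E3 and 13.12 at E6 where the set used gave 11.36 and 13.53. For RAB14 a weaker set gave 5.08 and 9.12 against 11.59 and 12.51. Of the 26 RABs with several probe sets, 9 had sets at least 3 log2 units apart in mean. The set used could match several transcripts for 8 RABs and several transcripts of its own gene for 3 more. Those 8 were RAB5A, RAB5B, RAB6A, RAB7A, RAB10, RAB11A, RAB14 and RAB18. For RAB5A, RAB10 and RAB18 there was no further probe set, so their values rest on such a set alone. Detection in at least 33 cells was also met by that other RAB7A set and by 3 further RAB2A sets, at 34, 36 and 36 cells. Further RAB6A sets met it as well, at 33 and 35 cells. The remaining RAB7A set was detected in 6 cells, and the further RAB14 sets in 3 and 14 cells. Further RAB1B sets were detected in 29 and 3 cells, the other RAB2A sets in 31 and 4 and the other RAB6A sets in 5 each.

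The next question was which RABs moved with age, asked across all probe sets by the slope of the 8 age means on embryonic day. With limma and Benjamini-Hochberg adjustment over 24981 probe sets, 33 (0.132%) rose and 0 (0%) fell, and at an unadjusted p under 0.05 the shares were 3.52% and 1.16%. Of the 49 RABs, 38 passed the filter on low values and 11 did not. None of the 38 was called in either direction by limma, and 1 had an unadjusted p under 0.05. Of the 38 slopes, 21 were positive and 17 negative, with a median of 0.04 log2 units per day against 0.02 over 10505 named genes. Of those 10505 slopes, 6134 were positive and 4371 negative.

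RAB33B, a Golgi RAB that also takes part in forming autophagosomes, had the largest slope, 0.30 ± 0.15 log2 units per day (SE, 8 age means; limma p = 0.0472, adjusted p = 0.9999). Its 6 E3 cells ran from 5.0 to 11.47 with a median of 5.0, and its 8 E14 cells from 5.0 to 14.57 with a median of 12.28. It was detected in 1 of 6 cells at E3, 6 of 10 at E6, 5 of 6 at E9 and 7 of 8 at E14. Cells at the floor were present at E3, E6, E9 and E14, so the ages overlapped. RAB6A had a slope of 0.27 ± 0.17, RAB12 of 0.25 ± 0.16 and RAB43 of 0.23 ± 0.14, all with adjusted p = 0.9999 in limma. Without E3 the slope of RAB6A was -0.0546.

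RAB23, which limits Hedgehog signalling at the cilium, had a slope of 0.10 ± 0.07 and was detected in 2 of 6 cells at E9, 1 of 8 at E14 and in none at other ages. The 5 RABs with negative slopes of smallest p ranged from -0.12 to -0.05 per day. RAB9B, of the late endosome, had -0.12 ± 0.12 and was detected in 3 of 6 E3 cells, 4 of 6 E9 cells and 1 of 8 E14 cells, where replicate 4 stood alone at 12.02, and its slope was 0.0208 without E14. RAB5B, of the early endosome, had -0.10 ± 0.11 and RAB30, of the Golgi, -0.09 ± 0.11. RAB31, of the Golgi and early endosomes, had -0.06 ± 0.06 and RAB40C, which works with a ubiquitin ligase, -0.05 ± 0.07, and they were detected in 3 and 4 cells in all.

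By compartment, 8 of the 11 RABs of the endoplasmic reticulum and Golgi that were tested had positive slopes, with a median of 0.14 per day. Among all named genes, 6134 of 10505 slopes were positive. The median was 0.02 for 8 early endosome RABs, 0.03 for 10 RABs of recycling and polarised delivery, and -0.02 for 5 RABs of late endosomes and lysosomes, of which 1 was positive. None of these groups held a called gene. The plot of slopes shows standard errors that cross 0 for most of the genes.

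**Figure D3:**
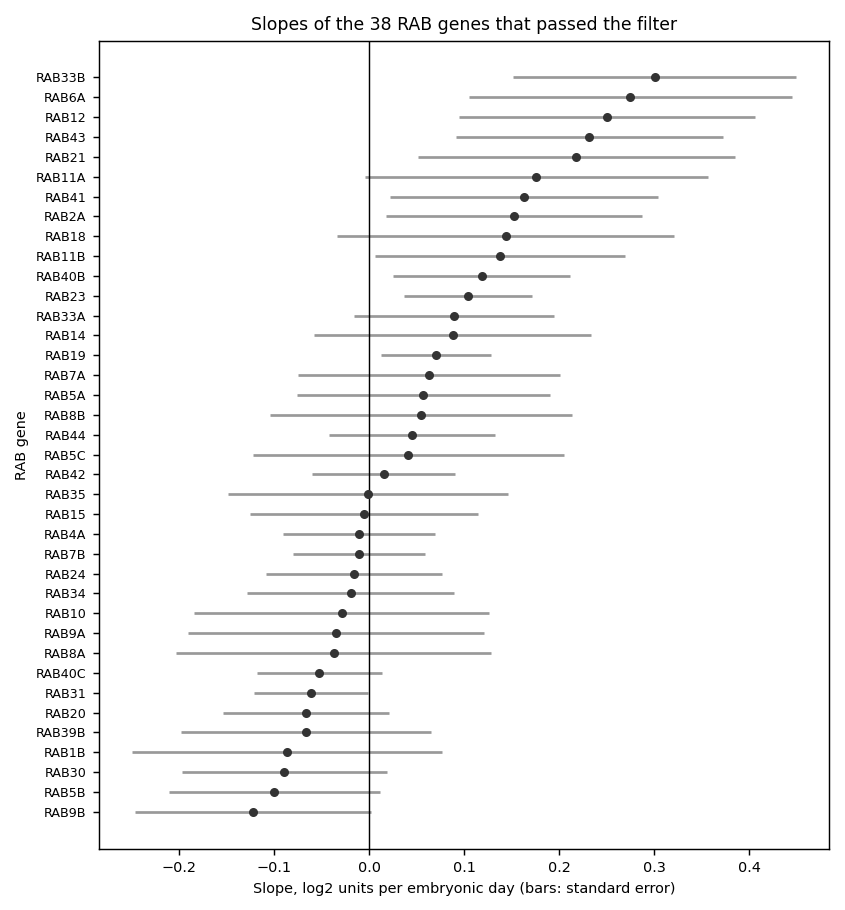
Slope of log2 signal per embryonic day for the 38 RAB genes that passed the filter, from limma on 8 age means weighted by their number of cells. Points are slopes and bars are 1 standard error each way. RAB33B lies highest at 0.30 and RAB9B lowest at -0.12, and none has an adjusted p under 0.05.

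The steps between ages with most cells were described without a test, since each age is 1 sample, and neighbouring steps share the cells of E6 or E9. From E3 to E6, 7 of the 38 RABs were higher by at least 3 log2 units, which is 8-fold, where 7.62% of 10505 named genes were, and 1 was lower, where 4.8% were. The 7 higher genes were RAB6A, RAB11A, RAB18, RAB8B, RAB11B, RAB41 and RAB33B. In RAB6A, RAB11A and RAB11B every E6 cell lay above every E3 cell, which 0.914% of named genes did, and no RAB showed the reverse, as 0.352% of named genes did. The median difference was 0.60 over the RABs and 0.24 over all named genes.

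RAB6A moves vesicles out of the Golgi and back to it. The E3 cells stood at 10.18, 7.60, 5.0, 5.0, 6.12 and 5.0 in replicates 1 to 6. The 10 E6 cells lay between 15.02 and 17.12 with a median of 15.80, so the lowest E6 cell was well above the highest E3 cell and the means differed by 9.44. The E4 cells, on arrays of high background, stood at 13.43, 13.69 and 14.54, and the E7 cell at 8.41. At E9 the 6 cells lay between 14.65 and 15.81, and at E14 7 of 8 cells lay between 14.61 and 15.76, with replicate 6 at 5.24. Of 4 further RAB6A probe sets, 2 had similar means of 5.82 and 6.58 at E3 and 15.66 and 15.08 at E6, and the other two lay between 5.57 and 5.87 at both ages, so the difference was 5.46 with the mean of all sets.

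RAB11A, the RAB of the recycling endosome, was near the floor in all 6 E3 cells, with a highest value of 5.92. The E5 cells stood at 5.0, 6.86, 5.0, 5.0 and 5.05. The 10 E6 cells ran from 8.32 to 15.37 with a median of 13.58, the E7 cell was at 12.78 and the 6 E9 cells ran from 9.49 to 14.45. E3 and E5 thus lay below every E6 and E9 cell. At E14 the gene was detected in 5 of 8 cells, with a mean of 9.85 ± 4.24 (SD, n = 8). The difference from E3 to E6 was 7.73.

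RAB18, which acts at the endoplasmic reticulum and lipid droplets, had a similar course. It was at 13.42 in E3 replicate 1 and at most 5.55 in the other 5 E3 cells, and its E5 cells ran from 5.0 to 5.77. Its 10 E6 cells ran from 7.28 to 14.32, the E7 cell stood at 12.85 and the 6 E9 cells ran from 11.14 to 13.82. The E3 and E6 groups overlapped through E3 replicate 1 alone, and the difference of means was 5.38. At E14 it was detected in 6 of 8 cells.

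RAB11B, close in sequence to RAB11A, had means of 5.03 ± 0.06 in the E3 cells (SD, n = 6), 9.32 ± 2.51 in the E6 cells (n = 10), 9.96 ± 1.66 in the E9 cells (n = 6) and 6.62 ± 3.07 in the E14 cells (n = 8). Its separation of E3 from E6 rests on values near the floor, since E6 replicates 5 and 7 stood at 5.68 and 6.23, below detection, and the highest E3 cell at 5.15. RAB8B, which delivers vesicles from the Golgi to the plasma membrane, had a mean of 6.02 at E3, with replicate 6 at 10.86, and 10.97 at E6, where 7 of 10 cells had it. Its further probe sets, detected in 7, 10 and 12 cells, differed from E3 to E6 by 0.04, -0.08 and -0.09, so the rise rests on the set used. RAB41, a Golgi RAB, was at the floor in 5 of 6 E3 cells and detected in 9 of 10 E6 cells, with means of 5.22 and 9.32. Its symbol covers probe sets of 2 gene IDs, and the value is that of the brighter one. The other set, detected in 24 cells, differed by 2.45 from E3 to E6, under the limit of 3.

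RAB8A, the other RAB8, was the gene lower at E6, with a mean of 10.55 ± 4.24 at E3 (n = 6) and 7.49 ± 2.37 at E6 (n = 10). Its E3 cells ran from 5.0 to 15.39 and its E6 cells from 5.0 to 12.72, so they overlapped. The difference of -3.06 was close to the limit of 3, and the count of lower genes was 0 when E3 replicate 1, 2, 4 or 5 or E6 replicate 1, 4, 6, 8 or 9 was left out. Further RAB8A probe sets, detected in 20, 15, 5 and 1 cells, differed from E3 to E6 by -1.66, -0.15, 0.31 and 0.19. Only the set used passed the limit. Beside this step, ACTB 3′ signal exceeded 5′ signal by 6.65 at E3 and 1.94 at E6, and the erythroid list mean was 9.40 and 5.71. The erythroid mean of single cells ran from 5.21 to 15.64 at E3 and from 5.17 to 6.56 at E6. The 9 lens genes had means of 5.98 (5.56 to 6.55) and 6.72 (6.05 to 8.60), and of them CRYBA4, a crystallin, was detected in 3 of 6 E3 and 10 of 10 E6 cells. Their part in the differences was not tested.

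**Figure D4:**
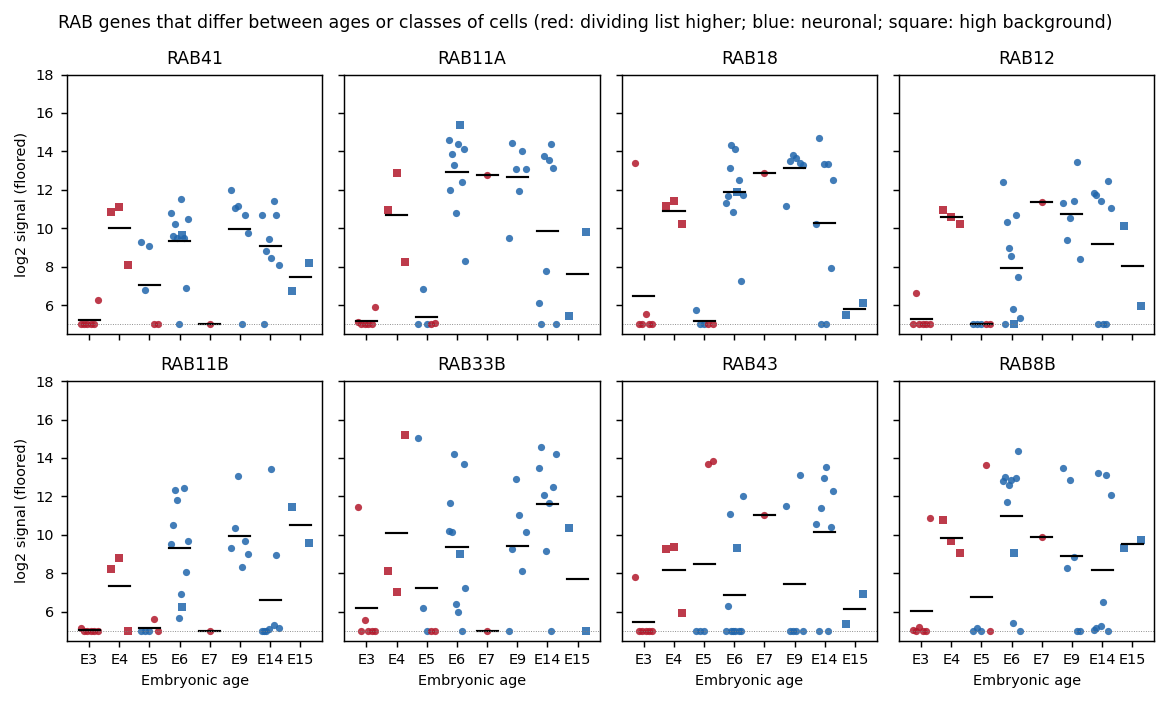
Log2 signal, floored at 5.0 (dotted line), by embryonic age of 8 RAB genes that differ between ages or classes of cells. Each point is 1 cell, squares are arrays of high background, red marks cells with the higher dividing list and blue those with the higher neuronal list, and bars are means of an age. RAB11A, RAB18, RAB12 and RAB11B lie near the floor in nearly all E3 and E5 cells and higher in most E6 and E9 cells.

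The E3 and E5 cells shared a further feature, picked out after the values were seen. RAB11A, RAB18, RAB12 and RAB11B were each detected in at most 1 of the 11 E3 and E5 cells and in at least 15 of the 20 E4, E6, E7 and E9 cells. These were 4 of the 38 RABs, and 100 of 10505 named genes (0.952%) met the same condition. All 4 were detected in E6 replicate 1, whose source name says E5, at 14.57, 11.34, 12.4 and 9.52. With that cell placed at E5, none of the 4 would meet the condition. RAB12, which guides recycling cargo to degradation, was at the floor in all 5 E5 cells and in 5 of 6 E3 cells, and stood at 10.96, 10.58 and 10.23 at E4 and 11.38 at E7. RAB11B was detected in 1 of 3 E4 cells, on arrays of high background, and was at the floor in the E7 cell. The E4 and E7 cells had the higher dividing list as the E3 cells did, while E5 held cells of both classes. The lower signal of these 4 genes at E3 and E5 was thus found in dividing and in neuronal cells.

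From E6 to E9 none of the 38 differed by 3 log2 units, where 2.44% of named genes were higher and 0.476% lower, and the median difference was 0.15 against -0.23 over all named genes. RAB12 had the largest, 7.95 at E6 and 10.74 at E9. The count of higher genes was 1 without E6 replicate 1, 3 or 8 or E9 replicate 2 and 2 without E9 replicate 6.

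From E9 to E14 none was higher by 3 log2 units (1.75% of named genes) and 1 was lower (6.2% of named genes). This was RAB11B, whose 6 E9 cells ran from 8.32 to 13.05 and whose 8 E14 cells ran from 5.0 to 13.44 with a median of 5.11. Replicates 5 and 7 were its only E14 cells with detection, at 13.44 and 8.95, and the groups overlapped through them. RAB18 and RAB11A had lower means at E14 by 2.87 and 2.83. The count of lower genes moved with single cells: it was 0 without E9 replicate 3 and 4 without E14 replicate 4, and it was 2 or 3 without E9 replicate 1, 2 or 6 or E14 replicate 2, 3, 5, 6, 7 or 8.

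RAB6A had the largest difference between neuronal and dividing cells among the RABs. Over all ages, 2 of the 38 RABs had a mean at least 3 log2 units higher in the 29 neuronal than in the 12 dividing cells (3.35% of named genes) and none was lower by that much (3.19%). RAB6A had means of 8.25 and 14.77 in dividing and neuronal cells, a difference of 6.52, and was detected in 7 of 12 and 27 of 29 cells. The 7 dividing cells with RAB6A were E3 replicates 1, 2 and 5, the 3 E4 cells and the E7 cell, so the classes overlapped. RAB11A had means of 7.17 and 10.90 and was detected in 3 of 12 and 23 of 29 cells, but its values of 5.0, 6.86 and 5.0 in the 3 neuronal E5 cells lay near the floor, as in the E3 and the dividing E5 cells.

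RAB33B, RAB41, RAB18 and RAB11B had differences between classes of 2.94, 2.79, 2.70 and 2.69, just under the limit. The count of higher genes was 4 without E3 replicate 1, 5 without E4 replicate 1, 4 without E4 replicate 2 and 6 without the arrays of high background. In RAB41 the E4 cells stood at 10.87, 11.09 and 8.07, above every other dividing cell. The other RAB41 probe set, of a different gene ID, was 1.46 higher in neuronal than in dividing cells. No RAB separated the classes without overlap, as 0.0476% of named genes did with higher and 0.019% with lower values in neuronal cells.

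Over the 35 cells on arrays of lower background, the correlation with the neuronal list mean was 0.86 for RAB6A, 0.71 for RAB41, 0.61 for RAB11A and between 0.50 and 0.53 for RAB11B, RAB33B and RAB18 (Pearson r, descriptions over cells that share age, array background and amplification). With the dividing list mean, RAB6A had -0.81 and RAB41 -0.60. RAB20, of endosomes, had the highest correlation with the dividing list among the tested RABs, 0.48, which rests on E3 replicate 6 at 13.52 and E5 replicate 5 at 13.46, its only cells above 13. The shared RABs other than RAB6A had correlations from -0.28 to 0.32 with the neuronal list, in the probe sets used. Another RAB7A set, detected in 37 cells, was 4.44 log2 units higher in neuronal than in dividing cells, against 0.03 for the set used. The remaining RAB7A set, detected in 6 cells, had a difference of -1.58. Further RAB2A sets had differences of -0.21 to 2.78, against 1.37 for the set used. For RAB1B the further sets, detected in 29 and 3 cells, had 1.90 and 0.05, against 0.12 for the set used.

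**Figure D5:**
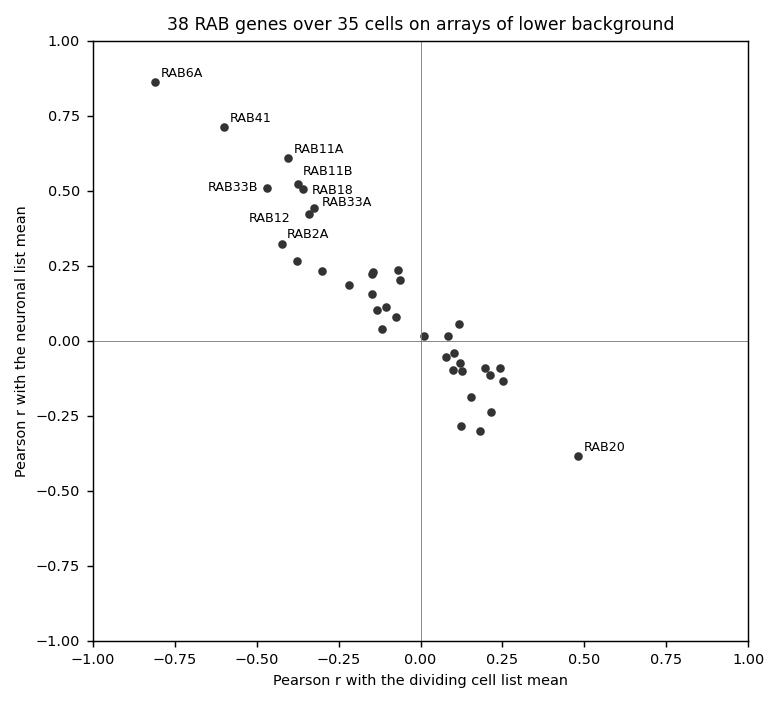
Pearson r of each of the 38 RAB genes that passed the filter with the mean of 38 dividing cell genes (horizontal axis) and of 27 neuronal genes (vertical axis), over the 35 cells on arrays of lower background. Points are genes, and those with the largest correlations are named. RAB6A lies farthest toward the neuronal list, at -0.81 and 0.86.

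Within E5 the classes could be set side by side at a single age, in 3 neuronal cells (replicates 1, 2 and 3) and 2 dividing cells (replicates 4 and 5). Of the 38 RABs, 5 were higher by at least 3 log2 units in the neuronal cells (8.41% of named genes) and 6 lower (10.7%). With 3 cells against 2, groups without overlap were common over all named genes, 8.35% with higher and 6.14% with lower values in neuronal cells, and 2 RABs met each. The ACTB difference between ends was 3.10 ± 1.004 in the neuronal cells (SD, n = 3) and 1.59 ± 0.52 in the dividing cells (n = 2).

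RAB6A stood at 13.84, 16.54 and 14.99 in the neuronal E5 cells and at the floor of 5.0 in both dividing cells, a difference of at least 10.12, since one side is at the floor. It was 13.40 with no floor and 5.77 with the mean of all probe sets. RAB41 stood at 9.30, 6.77 and 9.06 against 5.0 and 5.0. RAB43, of the Golgi, was the reverse, at 5.0 in all 3 neuronal cells and at 13.67 and 13.86 in the dividing cells. These genes separated the E5 classes without overlap, and RAB7B did too, at low values. At other ages RAB43 was detected in 1 of 6 E3 cells, 2 of 3 E4 cells and the E7 cell, at 11.02, among the dividing cells, and in 3 of 10 E6, 2 of 6 E9, 6 of 8 E14 and 0 of 2 E15 cells among the neuronal ones, with a mean of 10.14 ± 3.35 at E14 (SD, n = 8). The erythroid list mean was also higher at E14 than at E9 (7.79 and 5.67), and its part was not tested. A further RAB43 set was detected in 1 cell, and the E5 difference of -8.76, against neuronal cells at the floor, became -11.32 with no floor and -2.49 with the mean of its sets.

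Several other E5 differences turned on 1 cell. RAB14 stood at 15.22, 14.40 and 13.97 in the neuronal cells and at 14.15 and 5.0 in the dividing cells, and its difference of 4.95 became 0.38 without replicate 5. RAB33B was at 15.02 in replicate 1 and at most 6.22 in the others, and its difference of 3.74 became 0.61 without that cell, which left 3 higher genes. RAB8B was at 13.66 in dividing replicate 4 and at most 5.17 elsewhere, and its difference of -4.27 became 0.05 without replicate 4. RAB7A stood at 5.0, 5.0 and 14.34 against 14.63 and 12.34, so neuronal replicate 3 lay with the dividing cells, and its difference of -5.37 became 0.05 with the mean of its probe sets. RAB5C, RAB20 and RAB35 were each detected in 1 of 2 dividing and 0 of 3 neuronal cells, and RAB10 in 1 of 2 and 3 of 3.

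The rarely detected RABs include those of regulated secretion. RAB27A and RAB26 were detected in 2 cells each and RAB3B, a relative of the synaptic vesicle RAB3A, in 1, and none of them passed the filter. RAB27A stood at 13.60 in E3 replicate 5 and RAB3B at 12.04 in E14 replicate 7. RAB38 and RAB32, which supply pigment granules, were detected in 1 and 0 cells, and RAB28, of the cilium, and RAB10L in 0. For 0 of 41 cells the exact interval ends at 8.604%, a limit on cells with detection and not on cells with the transcript, which covers counting error only and takes the cells of 8 ages as 1 population. The 22 RABs seen in at most 8 cells had 63 detections in all, 15 of them on the 6 arrays of high background.

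Cells also differed in how many RABs they held. The number detected per cell, of 49, was 14.8 ± 3.87 in the E3 cells (SD, n = 6), 15.6 ± 1.82 in the E5 cells (n = 5), 20.1 ± 2.56 in the E6 cells (n = 10), 22.7 ± 1.51 in the E9 cells (n = 6) and 19.6 ± 2.504 in the E14 cells (n = 8). It was 28, 25 and 10 in the 3 E4 cells, 19 in the E7 cell and 7 and 11 in the E15 cells. The number of named genes detected was 3874 ± 177 at E3 (n = 6), 3782 ± 111 at E5 (n = 5) and 3998 ± 32.98 at E9 (n = 6). Every E9 cell held more RABs than every E3 or E5 cell, and no test was possible between single samples.

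The genes that act on RABs were described from 2 lists. Of 80 genes for RAB activation, prenylation and recycling, 64 were measured and 54 passed the filter, and of 74 effectors 65 were measured and 53 passed. In limma over all probe sets none of the 54 was called, 3 had an unadjusted p under 0.05 with a positive slope and 0 with a negative one, where 4.12% and 1.83% of 10505 named genes did. Of the 53 effectors, 1 was called and rose, where 0.133% of named genes did, and an unadjusted p under 0.05 was reached by 3 with positive and 2 with negative slopes. The median slopes were 0.05 and 0.02 per day, against 0.02 over all named genes.

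The called effector was RPH3A, rabphilin, a partner of RAB3A and RAB27A on synaptic vesicles, which rose by 0.61 ± 0.14 log2 units per day (SE, 8 age means; limma adjusted p = 0.0352). Cells with detection numbered 1 of 6 at E3, 4 of 10 at E6, 4 of 6 at E9 and 8 of 8 at E14, with age means of 5.42, 7.97, 9.67 and 14.08. At E15, the last age, RPH3A was detected in 0 of 2 cells, on arrays of high background, with a mean of 7.10. It was detected in 0 of 3 cells at E4, 1 of 5 at E5 and not in the E7 cell, with means of 6.47, 7.01 and 5.0. Over 57 alternatives the adjusted p ran from 0.01 to 0.9997 and was under 0.05 in 34. The call was lost without E4 replicate 2 or 3, without E5 replicate 4 or 5 and without any of the 8 E14 cells, with slopes of 0.58 to 0.62. It was lost with smaller slopes of 0.16 with the mean of all probe sets, 0.27 without E14 and 0.40 with equal weights. The call was lost too with no floor, a floor at the 25th percentile, quantile normalization or no trend. The same held without the high-background arrays and without E3, E4 or E7. Slopes in these further alternatives ran from 0.58 to 0.77.

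Among the genes named by their smallest p, TBC1D4, a GTPase activating protein that acts on RAB10 in insulin-responsive cells, had a slope of 0.35 ± 0.12 (adjusted p = 0.3344 in limma). It was detected in 6 of 8 E14 cells and in 0 of 10 E6 cells, but also in 3 of 5 E5 cells and in 0 of 2 E15 cells. Without E14 its slope was -0.0791. VPS39, a tethering subunit at RAB7 membranes, had 0.39 ± 0.16 (adjusted p = 0.6944), with detection in 4 of the 10 E6 cells and in every E9 cell. MADD, an exchange factor for RAB3 and RAB27 that was picked out after its values were seen, had 0.36 ± 0.17 (adjusted p = 0.902), with detection in 7 of the 10 E6 cells and 7 of the 8 at E14. RABGEF1 of the activation list and RAB11FIP2 of the effectors had smaller p than MADD. Their slopes were 0.39 ± 0.16 and 0.36 ± 0.16 (adjusted p = 0.7027 and 0.7715 in limma).

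RUFY1, an early endosome effector, had a slope of -0.16 ± 0.06 (adjusted p = 0.6315 in limma) and was detected in 3 cells, all dividing. EXOC7, a subunit of the exocyst that tethers vesicles at the plasma membrane, had -0.34 ± 0.17 with detection in 5 of 5 E5 cells and 4 of 8 E14 cells. SBF2, a protein of the DENN exchange factor family, had -0.07 ± 0.05 and was detected in 4 cells. The adjusted p was 0.9999 for EXOC7 and SBF2.

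Between classes, 3 of 54 activation genes and 3 of 53 effectors had means at least 3 log2 units higher in neuronal than in dividing cells and none was lower, against 3.35% and 3.19% of all named genes. RUFY3, an effector of neurons that takes part in axon growth, was detected in 0 of 12 dividing and 26 of 29 neuronal cells, with a difference of 6.99, and was picked out for these values. It was detected in 3 of 5 E5 cells, 10 of 10 E6 cells and 6 of 6 E9 cells. The other 2 effectors were RPH3A, at 4.41, and VPS39, at 3.45. The activation genes were TBC1D30, a GTPase activating protein, at 4.63, TRAPPC13, of a tethering complex, at 3.50 and MADD at 3.37.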

How the data were processed

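Single cells of dissociated chick retina were put on Affymetrix chicken arrays, 1 cell to an array. Log2 values of 38535 probe sets in each of 41 cells were deposited by the authors. Per the submitters' processing notes they come from MAS5, in a version the sources used here do not give. On the linear scale, array means trimmed by 2% at either end were 500.0 to 500.2, so the values were not scaled again. Arrays give no counts, so the number of cells limits the precision. MAS5 signals near the floor carry little information on order, and values below log2 5.0, the median of the table, were set to it.

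Genes were named through the platform annotation, which gave 1 symbol to 27178 probe sets, several to 177 and none to 11180. Of the 49 RAB genes, 47 had their gene ID in the RefSeq annotation of GRCg7b. No coordinates are given, since the sources used here do not give the build of the probe sets. The RefSeq entry of RAB1B lists RAB1A as a synonym, and RAB1A and RAB1B transcripts cannot be told apart here.

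The title gave each cell its age. For E6 replicate 1 the source name says E5, so placing it at E5 was an alternative. The series text counts 39 cells and 41 are labelled. Since no label names an embryo, an age counted as 1 sample. Probe sets were kept that reached the 80th percentile in 3 cells or more, without the 96 control sets. The 8 age means, with the number of cells as weight, were regressed on day in limma 3.58.1 in R 4.3.3 (lmFit, and eBayes with a trend), and p-values were adjusted over all kept probe sets with the Benjamini-Hochberg method. The p-values and standard errors of slopes draw on the spread of 8 means around a line, which may be technical. That spread had 6 residual degrees of freedom, against 78.7 for the variance that eBayes with a trend predicts across probe sets. The predicted variance carried the larger weight, so a small p does not show that a gene's own 8 means lay close to its line. Without the trend the 78.7 became 5.5, and 0 probe sets rose or fell. The model was run on simulated data, in which the values of each probe set were shuffled over cells and slopes were added. Recovery was required only at the largest added slope, which was larger than any RAB slope. That run therefore does not show that slopes of the size seen in the RABs would be found. Intervals of shares are exact Clopper-Pearson at 95%.

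The RAB genes and all gene lists were chosen with earlier results of these data known. The genes named with values were the 8 RABs detected in most cells, the 5 rising and 5 falling RABs with the smallest slope p, the 3 RABs with the largest difference each way past 3 log2 units in each step or class comparison, and of the activation and effector lists every called gene and the 3 rising and 3 falling with the smallest p. RUFY3, MADD, RABGEF1, RAB11FIP2, TBC1D30, TRAPPC13, RAB20, the rarely detected RABs and the further members of counts of 7 or fewer were chosen after their values were seen. Alternatives covered the floor, quantile normalization, the weights, the filter, the trend, the probe set, the percentile for detection, the arrays of high background, each age and each cell.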

Additional observations from a re-analysis of the deposited data

Results flagged for a closer look

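The cells of each age with 4 to 10 cells were searched for a value far from the rest, in 108 groups over the 22 RABs named with values. In 35 groups the highest or lowest cell lay farther from its nearest neighbour than Dixon's 95% critical value allows. That value is set for normally distributed values, which these floored signals are not, so the number of flags that chance would give is not known. Many groups consist of cells at the floor and 1 above it, or of high cells and 1 at the floor, so the limit is easily passed.

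Single cells lay low among high ones for the shared RABs. RAB1B was 5.0 in E3 replicate 4, RAB7A 9.43 in E6 replicate 10, RAB6A 5.24 in E14 replicate 6 and RAB14 5.0 in E5 replicate 5. RAB5A was 5.0 in E3 replicate 2, 9.90 in E9 replicate 4 and 5.26 in E14 replicate 2. E14 replicate 1 had both RAB14 and RAB10 at 5.0. RAB18 was low at 7.28 in E6 replicate 9 and at 11.14 in E9 replicate 1.

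Single cells lay high among low ones at E3. Replicate 1 had RAB33B at 11.47, RAB43 at 7.80 and RAB18 at 13.42, and RAB11B at 5.15, which was below detection. Replicate 2 had RAB12 at 6.65. Replicate 6 had RAB8B at 10.86 and RAB30 at 7.99, and RAB11A at 5.92 and RAB40C at 5.67, both below detection.

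At E5, replicate 1 had RAB33B at 15.02 and RAB18 at 5.77, replicate 2 had RAB11A at 6.86, and replicate 4 had RAB8B at 13.66 and RAB11B at 5.63. Of these, the RAB18 and RAB11B values were below detection. At E6, replicate 7, on an array of high background, had RAB23 at 8.52 and RAB40C at 8.56, both below detection. Replicate 3 had RAB8A at 12.72. At E9, RAB30 was 11.69 in replicate 4, RAB5B 10.38 in replicate 6 and RAB40C 5.94, below detection, in replicate 5. At E14, RAB23 was 11.75 in replicate 3, RAB9B 12.02 in replicate 4, RAB11B 13.44 in replicate 5 and RAB40C 6.44 in replicate 2.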

How the results depend on the processing

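No paired analysis was possible because each age is 1 sample and cells with the same replicate number at different ages are different cells. No RAB was called on the slope under any of the 57 alternatives, where the lowest adjusted p of a RAB was 0.3958 (RAB6A without E6, limma), and the count of 8 shared RABs stayed within 1.5 times. Over all probe sets, the 33 that rose became 0 with no floor, with quantile normalization, with equal weights, without a trend, when E4 was left out and when all 6 high-background arrays were, 2 with a floor at the 25th percentile, 55 without the filter, 53 with E6 replicate 1 at E5, 6 without E3, 107 without E6, 16 without E7, 72 without E9, 8 without E14 and 15 to 66 with 1 cell left out, and the 0 that fell became 14 without E6, 1 without E14 and 0 to 1 with 1 cell left out. Over the 38 tested RABs, 90 of 2141 recomputed slopes turned their sign, in 21 genes, with 24 of 57 for RAB35, 10 of 57 for RAB15, 9 of 57 for RAB4A and 6 of 56 for RAB7B, and among the 17 RABs named for slope 940 of 955 kept it. RAB6A had -0.0546 without E3, RAB9B 0.0208 without E14, RAB39B 0.0194 with the mean of its probe sets and -0.1024 to 0.0158 with 1 cell left out, RAB1B 0.0251 with the mean of its probe sets, 0.0519 without E15 and 0.0443 without the high-background arrays, RAB7A -0.0099 without E5 and -0.0445 without E14, RAB5A -0.0004 to 0.1378 with 1 cell left out, and RAB10 0.0834 without the arrays of high background, 0.1047 without E15 and -0.0846 to 0.0421 with 1 cell left out. TBC1D4 had -0.0791 without E14. From E3 to E6 the higher count of 7 was 6 to 7 with 1 cell left out, and the lower count of 1 was 0 with quantile normalization, with the mean of all probe sets and with E6 replicate 1 at E5, and 0 to 1 with 1 cell left out. From E6 to E9 the higher count of 0 was 1 with E6 replicate 1 at E5 and 0 to 2 with 1 cell left out. From E9 to E14 the higher count of 0 was 1 with no floor and 0 to 2 with 1 cell left out, and the lower count of 1 was 6 with no floor and 0 to 4 with 1 cell left out. Between classes over all ages the higher count of 2 was 6 with no floor, 6 without the arrays of high background and 2 to 5 with 1 cell left out. Within E5 the higher count of 5 was 3 to 6 with 1 cell left out, and the lower count of 6 was 3 with the mean of all probe sets, 3 with E6 replicate 1 at E5 and 5 to 8 with 1 cell left out. The E5 difference of RAB7A was 0.05 with the mean of its probe sets and that of RAB8B -8.5966 to 0.0547 with 1 cell left out. The cause of these changes was not tested.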
